A study of Mus musculus with 360 samples.

Results

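Integrin and laminin genes were followed in sorted skeletal cells of 3 skull sutures and the growth plate. Integrins are receptors made of an alpha and a beta subunit that tie a cell to the proteins around it, and laminins are trimers of an alpha, a beta and a gamma chain that build the basement membrane. All row names that start with Itga or Itgb or that name a laminin chain were taken from the count tables, except names that end in bp and a digit. This gave 40 of 24015 genes. Of these, 18 encode integrin alpha subunits, 9 encode integrin beta subunits (Itgb2l included), 5 encode laminin alpha chains, 3 laminin beta chains and 3 laminin gamma chains. The remaining 2, Itgbl1 and Itgb3bp, share the name but encode a secreted integrin-like protein and a nuclear protein, and they are given apart.

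The beta subunit Itgb1 joins with most alpha subunits, and the alpha subunit decides the ligand. The pairs of Itga1, Itga2, Itga10 and Itga11 with Itgb1 bind collagens, those of Itga3, Itga6 and Itga7 bind laminins, and those of Itga5, Itga8 and Itgav bind proteins with the RGD motif, such as fibronectin. Itgav, whose protein is the CD51 used to sort these cells, can join with Itgb1, Itgb3, Itgb5, Itgb6 or Itgb8, and with Itgb6 or Itgb8 it is known for releasing TGF-beta from its latent form.

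The cells came from CD-1 wild-type mice at postnatal day 3, with no further allele and no treatment, and were sorted for CD51 and CD200 and against blood, endothelial and other lineage proteins. They came from the posterior frontal suture (PF), which closes early in life, from the sagittal (SAG) and coronal (COR) sutures, which remain patent, and from the tibial growth plate (GP). The study asked how these cells differ between a closing suture and patent ones. Tissue was pooled and no animal is named for any cell, so each tissue is 1 sample, no difference between tissues has a replicate check, and no p-value is given.

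Of the 360 cells, 325 were used, which are those with 500 or more genes read and 10000 or more reads: 87 were from PF, 86 from SAG, 74 from COR and 78 from GP. Each tissue was on 2 plates of its own, which held 34 and 53 cells in PF, 30 and 56 in SAG, 16 and 58 in COR and 20 and 58 in GP. Reads were counted without the ribosomal RNA gene Rn45s, which held 86.8% of the reads of SAG plate 2 and between 20.2% and 30.96% on the other 7 plates. The median cell then had from 125830 reads on PF plate 1 to 511698 on PF plate 2. SAG plate 2 stands apart in a further way, with a median of 875 genes read per cell against 2111.5 to 3867 on the other plates, and the calls of members in SAG are given with and without it. Levels are counts per 1000000 reads other than those of Rn45s (CPM), summed over the cells of a plate. Exact 95% intervals cover counting error only. In summed reads, fewer cells that use a gene and less RNA of it per cell cannot be told apart, so the share of cells with a read is given as well.

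RNA of the proteins used in the sort was read in part of the cells, and no unsorted cells were measured for comparison. Itgav was read in 60.8% of cells in COR, 44.9% in GP, 36.8% in PF and 18.6% in SAG, and Cd200 was at 140.4, 123, 179 and 148 CPM in that order. On SAG plate 2, 11 of 56 cells had a read of either gene. Tek, whose protein was selected against, was at 0 throughout, and with Ptprc, Thy1, Enpep and Eng it summed to between 5.73 CPM in GP and 55.1 CPM in SAG.

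Of the 40 members, 36 had at least 1 read in the cells used, and 15 were read on all 8 plates. Itgad, Itgam, Itgb2l and Itgb6 had no read in any cell. With 3 counts as the limit, the share of cells that yield a read of such a gene is at most 4.05% in COR, 3.85% in GP, 3.49% in SAG and 3.45% in PF. This limits cells with a read and not cells that express the gene. Values on every plate are given for 26 members, those read in at least 10% of the cells of a tissue or called different between tissues. Members read more thinly, in at most 5.41% of the cells of any tissue and at no more than 19.3 CPM, included Itga3, Itgae, Itgal, Itgax, Itgb2, Itgb4, Itgb7, Lama1 and Lamb3. Itgb2, the beta subunit of white blood cells, had reads in 1 cell, and each of its alpha partners that was read was seen in 3 cells or fewer. No cell had a read of Itgb2 together with one of these partners.

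**Figure D1:**
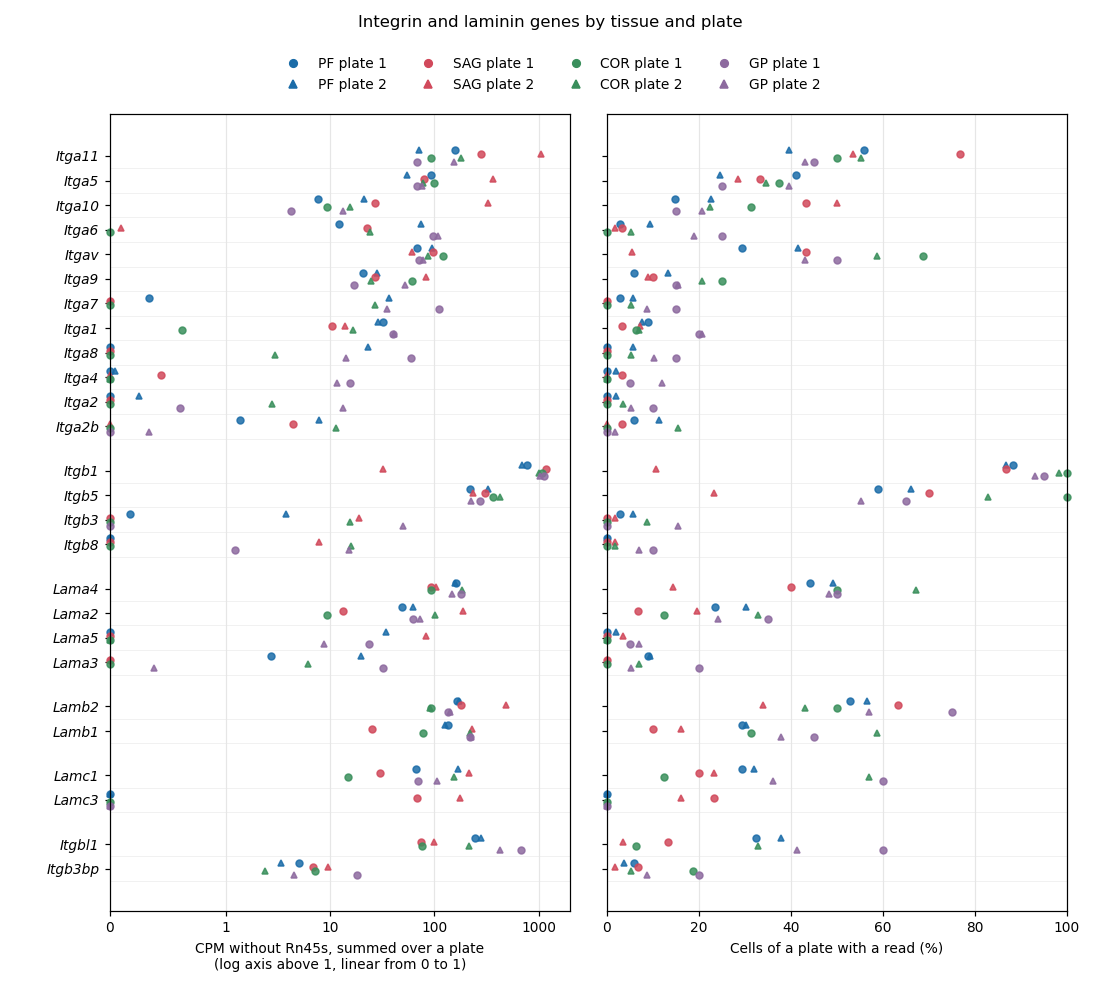
CPM without Rn45s (left, log axis above 1) and percent of cells with a read (right) for the 26 members given by plate, as 1 point per plate. Colours are tissues, circles are plate 1 and triangles plate 2. Itgb1 and Itgb5 lie far to the right of the other beta genes, Lamc3 has points above 0 only for the SAG plates, and Itgb1 of SAG plate 2 lies apart at 32.1 CPM.

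Itgb1 and Itgb5 made up nearly all beta subunit reads. Itgb1 (mm9 chr8:131209554-131257100, plus strand) was at 771 and 689 CPM on the plates of PF, 1073 and 1009.99 in COR and 1123 and 1020.4 in GP. In SAG it was at 1167 CPM on plate 1 and 32.1 on plate 2. Its share of cells was 87.4% in PF (95% interval 78.5 to 93.5), 93.6% in GP (85.7 to 97.9) and 98.6% in COR (92.7 to 99.97), and it was read in 26 of 30 and 6 of 56 cells of the SAG plates. Apart from SAG plate 2, every plate had Itgb1 as its most abundant beta subunit, both PF plates lay below the other 5, and SAG plate 1 lay above all of them. Itgb5, whose protein joins only with Itgav, was at 218 and 328 CPM in PF, 307 and 236 in SAG, 366 and 424 in COR and 271 and 226 in GP. Its COR plates lay above all others, but COR and PF differed by less than 2-fold. Per kilobase of the longest annotated transcript, the scale on which different genes can be compared, Itgb1 was at 272 CPM in GP, 266 in COR, 185 in PF and 127 in SAG, and Itgb5 at 75.8, 135, 99.2 and 85.5. The next beta gene, Itgb3 in PF, SAG and GP and Itgb4 in COR, reached at most 7.15 CPM per kilobase, in GP.

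The remaining beta genes were read in few cells and mostly on plate 2. Plate 2 held more cells than plate 1 in every tissue, and its median cell had more reads in PF, COR and GP. Itgb3, the beta subunit of platelets and osteoclasts and a vitronectin receptor with Itgav, was at 0.17 and 3.77 CPM in PF, 0 and 18.9 in SAG, 0 and 15.5 in COR and 0 and 49.6 in GP. No tissue lay apart from the others, and every plate 1 had at most 1 cell with a read. Itgb8 had no read in PF, 0 and 7.83 CPM in SAG, 0 and 15.8 in COR and 1.21 and 15.2 in GP. Both genes are taken up again with the GP cells that carry neural or glial markers.

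Among alpha subunits, Itga11 was the most abundant per kilobase in the summed reads of each tissue, at 150 CPM per kilobase in SAG, 34.3 in COR, 28.2 in GP and 17.7 in PF. Itga11 is the fibrillar collagen receptor of mesenchymal cells. It was first on 5 of the 8 plates, while Itga6 was first on PF plate 2 at 17.2 CPM per kilobase, Itga5 on COR plate 1 at 22.4 and Itga7 on GP plate 1 at 25.9. Itga5, the fibronectin receptor subunit, was at 56.9, 18.3, 16.96 and 14.2 CPM per kilobase in the same order and Itgav at 10.7, 12.8, 10.8 and 12.7. Itga6 was the second alpha gene in PF at 14.4 and in GP at 24.5 CPM per kilobase. On the plates, Itgav was at 68.3 and 94.7 CPM in PF, 96.6 and 60.9 in SAG, 122 and 86.8 in COR and 71.04 and 77.3 in GP, and the plates of the tissues overlapped in every pair but COR with GP, which differed by less than 2-fold. Its share of cells varied more than its level, and on SAG plate 2 only 3 of 56 cells had a read and 1 of them held 543 of the reads. A collagen-binding alpha gene was read in 60.9% of PF cells, 81.4% of SAG cells, 70.3% of COR cells and 65.4% of GP cells. A laminin-binding one was read in 10.3%, 6.98%, 6.76% and 26.9%, so the laminin receptors were the rarer class in every tissue and most frequent in GP. The GP share includes 8 cells with neural or glial markers, described further on, of which 6 had Itga6 and 3 had Itga7. It was not worked out without them. A cell had a median of 2 alpha genes read in each tissue, and at most 7, in GP.

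Cells that had a read of an alpha gene nearly always had a read of Itgb1. Without SAG plate 2, which lacks most Itgb1 reads, Itgb1 was read in 132 of 137 cells with Itga11, 90 of 91 with Itga5, 123 of 125 with Itgav, 60 of 63 with Itga10, 40 of 40 with Itga9 and 29 of 29 with Itga1. It was also read in 24 of 26 cells with Itga6, 14 of 15 with Itga7, 15 of 15 with Itga8, 10 of 10 with Itga4 and 7 of 8 with Itga2. In cells without the alpha read the share with Itgb1 was high as well, for example 86.8% without Itgav and 87.9% without Itga11, so Itgb1 was common with or without them. Of the 76 Itgb1 cells of PF, 14 had no alpha gene read, and it was 1 of 32 in SAG and 3 of 73 each in COR and GP. On SAG plate 2, 45 of the 50 cells without Itgb1 had an alpha gene read. Itga10 and Itga11 are known to pair with Itgb1 alone, and on that plate 24 cells with Itga11 and 25 with Itga10 had no Itgb1 read.

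Itgav has 5 possible partners and was looked at in detail (mm9 chr2:83564554-83647073, plus strand). Of the 128 cells that had Itgav, 124 had Itgb1, 92 had Itgb5, 13 had Itgb3, 4 had Itgb8 and none had Itgb6. By tissue, Itgb1 was read in 31 of 32 Itgav cells in PF, 13 of 16 in SAG, 45 of 45 in COR and 35 of 35 in GP. Itgb5 was read in 24 of 32 in PF, 11 of 16 in SAG, 39 of 45 in COR and 18 of 35 in GP. Both partners were read together in 23 of 32 Itgav cells of PF, 9 of 16 of SAG and 39 of 45 of COR, and in 18 of 35 of GP. In SAG all 9 such cells were on plate 1, among its 13 Itgav cells. Only 1 of the 128 Itgav cells had no beta gene read, on SAG plate 2.

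The share of cells with Itgb5 was compared between cells with and without Itgav. In PF Itgb5 was read in 24 of 32 cells with Itgav (interval 56.6 to 88.5%) and in 56.4% of those without (42.3 to 69.7). In COR the shares were 86.7% and 86.2%. In GP the order was the opposite, with 51.4% (33.99 to 68.6) and 62.8% (46.7 to 77.02). The GP shares include 8 cells with neural or glial markers, described further on, of which 6 had Itgav and 1 had Itgb5. Shares without these 8 cells were not worked out. The intervals overlap in each tissue, and thinned to 100000 reads other than Rn45s per cell the shares were 76.9% and 61.4% in PF, 88.1% and 82.8% in COR and 37.9% and 71.1% in GP. Cells with Itgav also had more genes read in PF, with a median of 2656.5 against 2225, and in GP, with 3406 against 2732, and the part of this depth in the shares was not tested. Itgb3 was read in 10.2% of Itgav cells (5.52 to 16.7) and in 3.05% of the others (1.13 to 6.51), and all 13 cells with both were on plate 2 of PF, COR or GP.

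**Figure D2:**
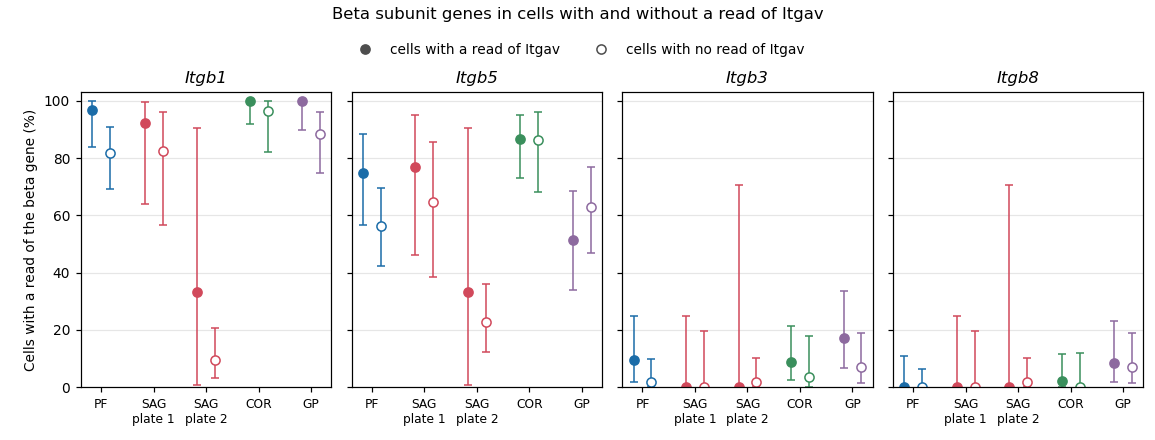
Percent of cells with a read of Itgb1, Itgb5, Itgb3 or Itgb8 among cells with a read of Itgav (filled points) and without (open points), by tissue and with the SAG plates apart. Bars are exact 95% intervals of counting error. Itgb1 is near 100% in Itgav cells of PF, COR and GP, Itgb5 is lower in Itgav cells of GP at 51.4%, and SAG plate 2 has only 3 Itgav cells. The 35 Itgav cells of GP include 6 with neural or glial markers.

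The laminin genes with reads on all 8 plates were Lama4, Lama2, Lamb1, Lamb2 and Lamc1, from which laminins of muscle, nerve, vessels and mesenchyme are built. Lama4, known from vessels and mesenchyme, was at 162 and 158 CPM on the PF plates, 93.4 and 104 in SAG, 92.03 and 183 in COR and 179 and 148 in GP. Lama2, the main alpha chain around muscle and peripheral nerve, was at 48.9 and 62.01 CPM in PF, 13.4 and 189 in SAG, 9.27 and 102 in COR and 62.95 and 72.03 in GP. The plates of COR and of SAG differed widely for Lama2. Both PF plates lay below both GP plates at a log2 ratio of -0.24, and in every other pair of tissues the plates overlapped. Lamb1 was at 134 and 127 CPM in PF, 25.02 and 228 in SAG, 78.1 and 221.5 in COR and 220.2 and 226 in GP. Lamc1, the gamma chain of most laminins, was at 66.9 and 168 CPM in PF, 30.1 and 214 in SAG, 14.8 and 155 in COR and 69.6 and 105 in GP. Both had plate differences within COR and SAG that were larger than any difference between tissues.

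The order of the beta chains differed between tissues, and in GP it turned on 8 cells. Per kilobase, Lamb2 was the most abundant laminin gene in PF at 30.7 CPM per kilobase and in SAG at 64.9, whereas Lamb1 was first in COR at 35.8 and in GP at 38.9. On the plates, Lamb2 exceeded Lamb1 in CPM on both plates of PF and SAG and fell below it on both plates of GP. In COR it was below on plate 2 only, where Lamb1 was at 221.5 CPM and Lamb2 at 91.4, while plate 1 had 78.1 and 93.3. With the cells that had neural or glial markers left out, which are described further on, Lamb2 exceeded Lamb1 in GP, at 22.5 against 12.6 CPM per kilobase, and on both GP plates, while COR kept Lamb1 first at 26.02 against 15.3. Summed over all 11 chains, laminin was at 715 CPM in GP, 712 in COR, 712 in PF and 1059 in SAG. The sums of PF, COR and GP were close, but by plate laminin was at 581 and 743 CPM in PF, 288 and 760 in COR, 723 and 714 in GP and 421.02 and 1483 in SAG. The 27 integrin subunit genes summed to 1926 CPM in GP, 1952 in COR, 1456 in PF and 2135 in SAG.

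A cell needs an alpha, a beta and a gamma chain to secrete a laminin. All 3 kinds were read in 26 of 78 GP cells (33.3%, 23.1 to 44.9), 22 of 74 COR cells (29.7%, 19.7 to 41.5), 18 of 87 PF cells (20.7%, 12.7 to 30.7) and 7 of 86 SAG cells (8.14%, 3.34 to 16.1). By plate the shares ran from 0 of 16 cells on COR plate 1 to 10 of 20 on GP plate 1. The GP cells include 8 with neural or glial markers, described further on, of which 8 had Lama4 and Lamc1 and 7 had Lamb1. COR has 2 such cells, with Lama4, Lamb1 and Lamc1 read in each, and PF has 2, of which 1 had Lamc1. Shares and counts of chains without these cells were not worked out. A gamma chain gene was read less often than the others in PF, COR and GP. An alpha chain gene was read in 59.8% of PF cells, a beta chain gene in 70.1% and a gamma chain gene in 31.03%, in COR the shares were 68.9%, 71.6% and 47.3%, and in GP they were 66.7%, 75.6% and 43.6%. In SAG alpha and gamma chain genes were each read in 37.2% of cells and beta chain genes in 51.2%. Lama4, Lamb1 and Lamc1, which together can form a laminin, were read in the same cell in 21 cells of COR, 14 of GP and 10 of PF and in none of SAG. Lama4, Lamb2 and Lamc1 were read together in 12, 11 and 10 cells and in 1 of SAG. Cells with no chain gene read were 9.46% in COR, 10.3% in GP, 17.2% in PF and 20.9% in SAG.

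For differences between tissues, a gene was called higher or lower where the log2 ratio of (CPM + 1) was at least 1 in size on the summed reads and each of the 4 possible plate-to-plate ratios pointed the same way. This was done for 10686 genes with at least 10 CPM in a tissue, 26 of them members. Of the members, 16 were called in at least 1 of the 6 pairs of tissues.

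The closing suture and the coronal suture did not differ in any member by this rule. PF was higher than COR for 0 of 26 members, against 5.27% of all genes tested, and lower for 0, against 6.60%. The median log2 ratio was -0.05 over the members and 0.01 over all genes. Some members lay apart on all plates by less than 2-fold. Itgb1 and Itgb5 were lower on both PF plates than on both COR plates, at log2 ratios of -0.53 and -0.45, and Lamb2, at 166 and 174 CPM in PF and 93.3 and 91.4 in COR, was higher at 0.91. Itga1 was higher in PF at 0.93 and Itgbl1 at 0.44. The larger ratios, such as 1.49 for Itga6 and 4.83 for Lama5, had plates that overlapped.

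GP was higher than COR for Itga6 and Itgbl1 and for members read at lower levels, and few members were called between GP and PF. PF was higher than GP for 1 member, Itga2b, against 7.56% of all genes, and lower for 3, Itga2, Itga4 and Itgb8, against 8.61%, so that 4 of 26 members were called where 16.2% of all genes were. COR was higher than GP for 0 members, against 6.39%, and lower for 6, Itga1, Itga4, Itga6, Itga8, Itgbl1 and Lama5, against 7.02%. Itga4, which binds fibronectin and VCAM-1, was at 15.6 and 11.7 CPM in GP, 0 and 0.04 in PF, 0.44 and 0 in SAG and 0 on both COR plates. Both GP plates lay above all others, at a log2 ratio of -3.70 for PF to GP. COR was at least 132-fold lower, reckoned from 3 counts, which covers the counting of reads and not missed cells. The reads came from 8 GP cells, and with the cell with most reads of each tissue left out the call was lost, at a log2 ratio of -3.18 for PF to GP. GP plate 1 had 1 of the 8 cells.

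Itga6, which pairs with Itgb1 or Itgb4 as a laminin receptor, was at 97.4 and 107 CPM in GP, 12.2 and 74.3 in PF, 22.7 and 0.10 in SAG and 0 and 23.96 in COR. GP was the highest on both plates and its log2 ratio was -2.24 for COR to GP and -3.40 for SAG to GP, while the call against PF failed on size. Itga1, a collagen and laminin receptor, was at 39.9 and 40.5 CPM in GP, 32.5 and 28.7 in PF, 10.47 and 13.7 in SAG and 0.62 and 16.6 in COR, and its log2 ratio of COR to GP was -1.37. Itga8 was at 59.5 and 14.2 CPM in GP, 0 and 23.2 in PF, 0 and 2.99 in COR and 0 on both SAG plates. The Itga8 plates of PF overlapped those of GP. Itga7, the laminin receptor of muscle, was at 110.3 and 34.9 CPM in GP, 0.34 and 36.5 in PF, 0 and 26.9 in COR and 0 in SAG. Its SAG level was at least 275-fold below GP and at least 169-fold below PF by the limit of 3 counts. That limit covers the counting of reads only, and Itga7 was read in 4 PF cells and 8 GP cells.

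Other members called against GP rested on few cells. Itga2 was read in 5 GP cells, with 0.61 and 13.4 CPM on the plates, against 0 and 0.25 in PF, 0 and 2.74 in COR and 0 in SAG. Itga2b, the platelet subunit, was at 1.35 and 7.79 CPM in PF, 4.36 and 0 in SAG, 0 and 11.4 in COR and 0 and 0.34 in GP, in 8, 1, 9 and 1 cells. The calls of Itga2, Itga2b and Itgb8 for PF to GP were lost without the cell with most reads, at log2 ratios of -2.21, 1.87 and -3.07 against -3.34, 2.56 and -3.79 with it. Lama5 was read in 5 GP cells at 23.5 and 8.71 CPM, in 1 PF cell (0 and 33.997 CPM), in 2 SAG cells (0 and 82.4) and not in COR, and 3 of the 5 GP cells had pericyte or smooth muscle markers and 89.1% of its reads.

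Itgbl1, the integrin-like secreted protein, was highest in GP and lowest in SAG. It was at 671 and 429 CPM in GP, 245 and 278 in PF, 74.1 and 99.8 in SAG and 76.6 and 213.2 in COR, and it was read in 46.2%, 35.6%, 6.98% and 27.03% of cells. The GP plates were above all others, and the SAG plates were below those of PF. The log2 ratios were -1.24 for COR to GP, -2.38 for SAG to GP and -1.59 for SAG to PF. Itgb3bp, a centromere protein, was at 5.07 and 3.36 CPM in PF, 6.84 and 9.58 in SAG, 7.10 and 2.36 in COR and 18.01 and 4.505 in GP, and no tissue reached the 10 CPM limit. Itga9, a tenascin receptor subunit, was at 20.6 and 28.2 CPM in PF, 26.8 and 82.1 in SAG, 60.8 and 24.9 in COR and 16.8 and 52.4 in GP, with plates that overlapped in each pair of tissues. Lama3, an alpha chain of epithelial laminins, was at 2.70 and 19.6 CPM in PF, 31.8 and 0.38 in GP, 0 and 6.11 in COR and 0 on both SAG plates.

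Over all genes, 29.2% to 31.5% were called between SAG and another tissue and 11.9% to 16.2% in the pairs without SAG, and without SAG plate 2 the shares were 31.8% to 33.6% and 11.9% to 16.3%. The members did not follow this order throughout, since 4 were called between SAG and COR and 6 between COR and GP. SAG was higher than PF for 4 members (12.4% of all genes) and lower for 4 (16.9%), higher than COR for 4 (12.5%) and lower for 0 (18.9%), and higher than GP for 5 (12.4%) and lower for 8 (18.3%). Itga10, Itga11, Lamb2 and Lamc3 were higher in SAG than in each of the other 3 tissues, and Itga5 was higher than in GP. Lower were Itga1, Itga7, Itgbl1 and Lama3 against PF and GP, and Itga2, Itga4, Itga6 and Itga8 against GP. The 3 comparisons share the SAG cells. With SAG plate 2 left out, all 12 lower calls held, and of the 13 higher calls 5 held. Calls gained in that setting are not among these, and fewer plate-to-plate ratios then had to point the same way. Members called for SAG to PF, COR and GP were then 11, 4 and 17 of 27 tested. The shares of all genes were 33.2%, 31.8% and 33.6%. With both SAG plates, members called were 8, 4 and 13 of 26. The median of all genes was itself shifted, by -0.30, -0.30 and -0.25 on the log2 scale for SAG to PF, COR and GP, and by -0.07, -0.09 and -0.11 with TMM factors.

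Lamc3 was read in SAG alone. It encodes a gamma chain that joins with Lama2 or Lama4 and a beta chain (mm9 chr2:31742811-31802059, plus strand). Its row overlaps Gm13441 on the other strand, and the use of strand in the counting is not given, so reads of the pair cannot be told apart. It had 464 reads in 7 of 30 cells of SAG plate 1 (67.5 CPM) and 1814 reads in 9 of 56 cells of plate 2 (175 CPM), and 0 reads in the 239 cells of PF, COR and GP. Both SAG plates lay above the 6 others, at least 1337-fold above PF, 1413-fold above COR and 1256-fold above GP by the limit of 3 counts over each tissue. These limits cover the counting of reads only. SAG cells with a read held a median of 108.5 Lamc3 reads, so a missed cell could hold far more than 3. By cells, a count of 0 limits the share to 3.45% in PF, 4.05% in COR and 3.85% in GP, against 16 of 86 cells in SAG. The reads were spread over the cells, with 1 to 114 reads per cell on plate 1 and 13 to 451 on plate 2, and the richest cell held 19.8% of them. The call held with SAG plate 2 left out, at a log2 ratio of 6.10 against 7.06 with both plates. Thinned to 100000 reads, it was seen in 16.3% of SAG cells. Of the 16 cells, 15 had reads of at least 2 of 6 chondrocyte markers, against 51 of the other 70 SAG cells, and Col2a1, the main collagen of cartilage, was read in 6 of 7 and 8 of 9 of them on the plates. Lama4, Lamb2 and Lamc3 were read together in 3 SAG cells, all on plate 1.

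Itga10 and Itga11, the collagen receptors of chondrocytes and of fibroblasts, were both higher in SAG, on plate 2 above all. Itga10 (mm9 chr3:96449507-96468442, plus strand) was at 26.8 and 328 CPM in SAG, 7.61 and 21.2 in PF, 9.27 and 15.5 in COR and 4.25 and 13.4 in GP. Itga11 (mm9 chr9:62525633-62631789, plus strand) was at 279 and 1054 CPM in SAG, 159 and 70.99 in PF, 92.3 and 179 in COR and 67.8 and 156 in GP. For both genes each SAG plate lay above all 6 other plates, and for Itga10 SAG plate 1 and PF plate 2 were close. The log2 ratios of SAG to PF, COR and GP were 3.42, 3.72 and 4.02 for Itga10 and 3.06, 2.12 and 2.40 for Itga11. Without SAG plate 2 they fell to 0.51, 0.81 and 1.11 for Itga10 and to 1.65, 0.71 and 0.99 for Itga11. The share of cells with Itga10 was 47.7% in SAG (36.8 to 58.7) and 19.2% to 24.3% in the other tissues, and on SAG plate 1 it was 13 of 30 cells. Itga11 was read in 61.6% of SAG cells (50.5 to 71.9) and in 43.6% to 54.1% elsewhere. Both genes were read together in 16 of 56 cells of SAG plate 2. The row of Itga10 overlaps that of another gene on the same strand, so its level is uncertain to that extent.

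Lamb2, a beta chain of laminins at synapses, kidney and vessel walls, was at 179 and 488 CPM in SAG, 166 and 174 in PF, 93.3 and 91.4 in COR and 136 and 140 in GP. SAG plate 1 was barely above PF plate 2, and the log2 ratio of SAG to PF fell from 1.08 to 0.06 without plate 2, that to COR from 1.98 to 0.96 and that to GP from 1.39 to 0.37. Itga5 was at 78.9 and 362 CPM in SAG, 93.1 and 54.9 in PF, 98.2 and 78.3 in COR and 68.2 and 75.5 in GP. Its call against GP rested on SAG plate 2, and the log2 ratio was 0.09 without it. Chondrocyte markers summed to 14586 CPM in SAG, with 18653 and 11882 on the plates, against 236 in PF, 158 in COR and 3518 in GP, with none of the 6 at 0 in SAG and GP and Matn1 at 0 in PF and COR. Their part in the higher level of these members in SAG was not tested.

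**Figure D3:**
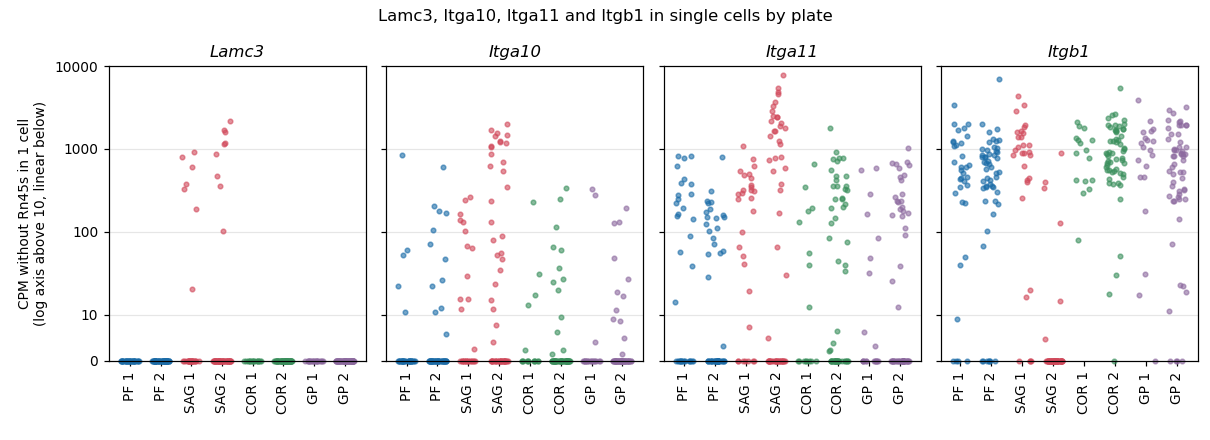
CPM without Rn45s in each of the 325 cells for Lamc3, Itga10, Itga11 and Itgb1, by tissue and plate (log axis above 10, points at 0 have no read). Lamc3 is above 0 in 7 and 9 cells of the SAG plates and nowhere else, the cells with most Itga10 and Itga11 reads are on SAG plate 2, and Itgb1 is read in 6 of 56 cells of that plate.

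The SAG plates differed by transcript length, over all genes and over the members as a set, though single members lay far from the genes of their length. Over 8903 genes with at least 10 CPM on a SAG plate and a known transcript, the median log2 ratio of plate 2 to plate 1 was -3.97 for genes of 39 to 1835 bases and 1.45 for those of 5153 bases or more, the ends of 5 length classes of like size. Spearman's rho between the ratio and the length was 0.47 over all these genes and 0.47 over 20 members, given without a p because the genes share 2 plates. On the plates of PF, COR and GP rho over all genes lay between 0.04 and 0.06. Members have long transcripts, from 3090 bases for Itgb5 to 11388 for Lama5 among these 20. On plate 2, 11 of the 20 were at least 2-fold higher and 3 at least 2-fold lower. Among all genes compared between the SAG plates, 2756 were that much higher and 4348 that much lower. The median log2 ratio was 1.40 over the 20 members and -0.89 over all genes. Among the members lower on plate 2 there were Itgb1, at a log2 ratio of -5.14, and Itga6, at -4.43. With 3815 bases, Itgb1 fell far below the median of 0.25 for genes of 3712 to 5152 bases. Itgb5 is shorter and was nearly equal on the plates, at -0.38. Lamb2, with 5624 bases, was at 1.44, near the median of 1.45 of its length class. Itga10, Itga11 and Itga5 belong to the class of Itgb1 with its median of 0.25 and were above it, at 3.57, 1.91 and 2.19. The part of length in the SAG levels of these genes was not tested. Lamc3, with 5871 bases, was read on both plates at 67.5 and 175 CPM.

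**Figure D4:**
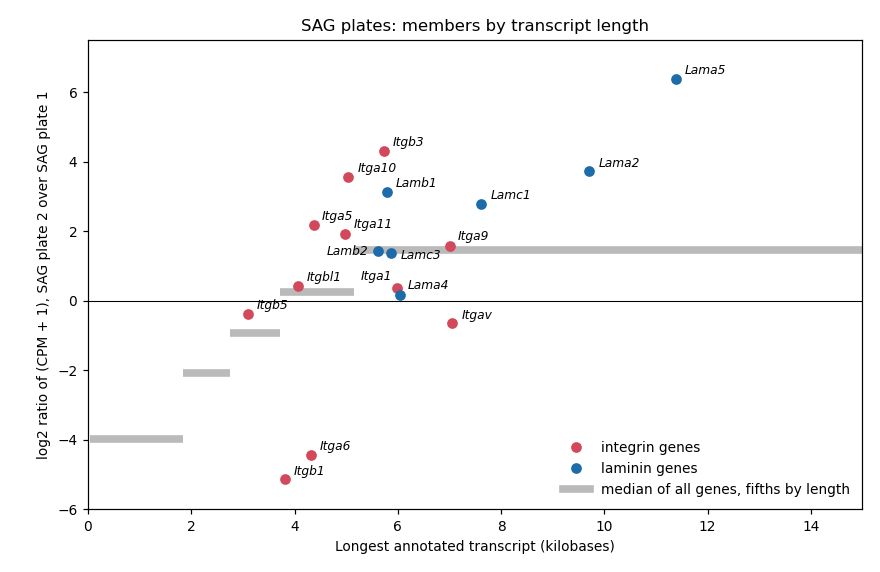
Log2 ratio of (CPM + 1) on SAG plate 2 over SAG plate 1 against the longest annotated transcript, for those of the 20 members whose values on every plate are given. Grey bars are the medians of all genes in 5 length classes, from -3.97 to 1.45, the last drawn to the edge of the axis. The laminin genes drawn lie above 0, and Itgb1 and Itga6 lie far below the bars of their length.

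In GP, a few cells with neural or glial markers held much of the laminin and laminin receptor RNA. Reads of at least 2 of 5 such markers, which include Sox10, Foxd3 and Ngfr, were found in 8 of 78 GP cells, 3 on plate 1 and 5 on plate 2, and in 2 cells of PF, 2 of COR and 1 of SAG. The markers summed to 406 CPM in GP with none of the 5 at 0, 203 in PF and 3.37 in SAG with 2 of the 5, Foxd3 among them, at 0 in both, and 175 in COR. The 8 cells held 10.02% of the GP reads and had a median of 3063 genes read, against 2967 in the other 70. They held 99.2% of the Itgb8 reads, 70.96% of those of Lamb1, 59.2% of Lama2, 59.2% of Lamc1, 54.8% of Itga6, 43.3% of Itgb3 and 42.8% of Lama4. Lama4 and Lamc1 were read in 8 of 8 of these cells, Lamb1 in 7, Lama2 and Itga6 in 6 and Itgb8 in 5. In the other 70 GP cells Lama4 was read in 30, Lamc1 in 25, Lamb1 in 24, Lama2 in 15, Itga6 in 10 and Itgb8 in 1. Laminin chains and the receptor genes Itga6 and Itgb8 were therefore concentrated in the same few cells. All GP reads of Itgb4, the hemidesmosome partner of Itga6, were in 2 of them.

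The same cells had no read of several members that were read in the other 70. For Itga10 and Itga9, read in 21.4% and 17.1% of the 70, a count of 0 in 8 cells says little. Itga11, Itga5, Itga10, Itga9 and Itgbl1 had no read in the 8 cells and were read in 34, 28, 15, 12 and 36 of the other 70. Itgb5 was read in 1 of 8 against 44 of 70, and its reads there were 0.51% of those in GP. Itgav was read in 6 of 8 and Itgb1 in 8 of 8, so these cells carried the RNA of the protein used in the sort. In COR the 2 such cells held 100% of the Itgb8 reads, 92.5% of Itga7 and 85.8% of Itga6, with 2.88% of all reads, and in PF the 2 cells held 44.2% of Itga6 and 35.1% of Lamc1 with 3.37% of all reads. Only 1 of the 2 cells had a read for Itgb8 in COR, for Itga6 in PF and for Lamc1 in PF.

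Left out of every tissue, these cells changed the comparison with GP. The log2 ratio of Itgb8 for PF to GP went from -3.79 to -0.16, that of Itga1 for COR to GP from -1.37 to -0.77, and the calls of Itga4 against GP were lost. Itga4 still had a log2 ratio of -3.37 for PF to GP against -3.70 with all cells, and its level in GP, 9.72 CPM, was then under the 10 CPM limit of the call. Itga6 stayed called, at -3.70 for COR to GP and -2.41 for SAG to GP. The log2 ratio of the summed laminin genes moved from -0.01 to 0.52 for both PF to GP and COR to GP. Pericyte or smooth muscle markers were read at 2 or more in 10 GP cells, 1 of them among the 8, and these held 67.8% of the Itga7 reads, 58.4% of those of Itga4 and 42.1% of Itga8 with 16.4% of all reads. With such cells left out of every tissue, the calls of Itga1 and Lama5 for COR to GP, of Itga7 and Itga1 for SAG to PF, of Itga5 for SAG to GP and of Itga4 against GP were lost. The log2 ratios then were -0.86 for Itga1 and -1.30 for Lama5 (COR to GP), -3.60 for Itga7 and 0.00024 for Itga1 (SAG to PF), 1.71 for Itga5 (SAG to GP) and -2.79 for Itga4 (PF to GP). Itga7, Lama5 and Itga5 were still at least 2-fold apart and lost the call through plates that overlapped.

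**Figure D5:**
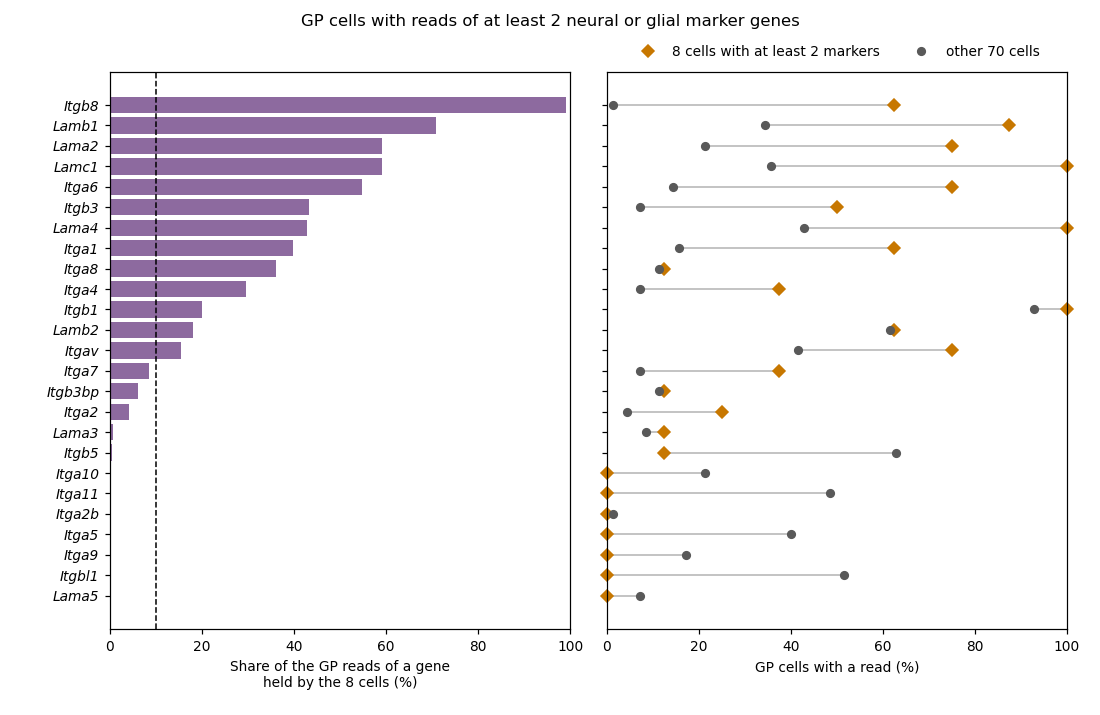
Left, share of the GP reads of each member held by the 8 GP cells with reads of at least 2 neural or glial markers, where the dashed line marks their 10.02% share of all reads. Right, percent of these 8 cells (diamonds) and of the other 70 (circles) with a read. Itgb8, Lamb1, Lama2, Lamc1 and Itga6 are concentrated in the 8 cells, and Itga11, Itga5 and Itgbl1 are read in none of them.

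Ligands of these receptors and the proteins that tie integrins to actin were read from lists beside the members. Of 13 ligands and basement membrane partners, PF was higher than COR for Col4a2 and Nid2 and lower for Npnt and Postn. These are 2 and 2 of 13, beside 5.27% and 6.60% of all genes. PF was lower than GP for Postn alone, 1 of 13 beside 8.61% of all genes. COR was higher than GP for Npnt alone, 1 of 13 beside 6.39%. Postn, periostin, was at 1352 and 855 CPM in PF, 4185 and 6331 in COR, 5922 and 6191 in GP and 1379 and 4359 in SAG, so both PF plates were below all others. Npnt, nephronectin, the ligand of Itga8, was at 412 and 345 CPM in COR and between 46.4 and 145 CPM elsewhere, and COR was higher than PF, SAG and GP by the rule. Fn1, fibronectin, was higher in SAG than in the 3 other tissues, at 4433 and 8294 CPM against 1247 to 3145 on the other plates. Without SAG plate 2 its log2 ratios fell from 2.15 to 1.54 for PF, from 1.82 to 1.22 for COR and from 1.26 to 0.65 for GP, so the last call was lost. Without SAG plate 2 the calls of Col4a1 and Npnt and that of Tnc against GP held. Those of Hspg2, Postn and Spp1 and those of Tnc against PF and COR were lost. Of 19 adaptors, 16 were tested, and Ilk, Tln1 and Tns3 were higher in SAG than in each other tissue, 3 of 16 beside 12.4% to 12.5% of all genes. No other adaptor was higher in SAG. Lower in SAG were Tln2 and Ptk2 against PF, Lims1 against COR and Tln2 against GP. These are 2, 1 and 1 of 16, beside 16.9%, 18.9% and 18.3% of all genes. Ilk was at 357 and 1031 CPM on the SAG plates, Tln1 at 365 and 1213 and Tns3 at 44.5 and 852. Without SAG plate 2, the log2 ratios to PF, COR and GP were 1.02, 0.02 and 0.34 for Ilk, 0.79, 0.83 and 1.15 for Tln1 and 1.52, 1.05 and 0.62 for Tns3. Of these 9 higher calls, 4 held. Both lower calls of Tln2 held, at -3.29 for PF and -3.18 for GP, and those of Ptk2 and Lims1 were lost. PF was lower than COR for Ilk and Pxn, 2 of 16 beside 6.60% of all genes. COR was lower than GP for Lims2, 1 of 16 beside 7.02%. Of the 2 further laminin receptors, Bcam was at 0 in COR and 11.3 CPM in GP, and Dag1, dystroglycan, was at 77.3 and 872 CPM in SAG against 42.9 to 184 on the other plates and was not called against any tissue.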

How the data were processed

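Single cells of 4 tissues were read by full-length RNA sequencing, 8 tables in all, 2 plates per tissue. The authors deposited raw read counts per gene and cell, and their processing notes name STAR 2.5.3a, HTSeq, Seurat 2.3.0, R 3.4.4 and build mm9. Annotation, strand setting and counting options are not given in the sources used here, so overlapping genes such as Itga1 and Pelo are uncertain. Results that need certain genes are not reported here. The instrument and RNA preparation differ between the labels and the study's methods. Table columns were matched to samples by name, and 0 were left unmatched. The labels of 1 cell conflict, with SAG in the title and a PF plate in the description. The title was followed, and 0 of the 35 calls were lost without this cell. No 2 of the 325 cells had the same profile.

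Reads were summed per tissue and per plate, scaled without Rn45s, and compared as log2 ratios of (CPM + 1). Samples have no replicate beyond the plate, which shares its tissue pool, so no test was run. Members given by plate were those read in 10% or more of the cells of a tissue, or called in a pair. The members and lists were chosen with earlier results of these data known. Intervals were exact (Clopper-Pearson or Poisson, 95%), a count of 0 was read as at most 3, and cells were thinned to 100000 reads to compare shares. Transcript lengths and positions came from GENCODE M1 on mm9. The calculations were tested on simulated data. Python 3.11.15, numpy 2.4.6, pandas 2.3.3, scipy 1.17.1 and matplotlib 3.10.9 were used, with R 4.3.3 and edgeR 4.0.16 for TMM factors only.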

Additional observations from a re-analysis of the deposited data

Results flagged for a closer look

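The 35 cells left out for few genes or reads held 4698 reads of the 40 members among 11422904 reads. At least 1 member was read in 11 of these cells. Itgb1 had 5 reads in 3 of them and Itgav was read in none.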

How the results depend on the processing

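Of 35 single-member calls, 16 held under every alternative that gave a call and 19 were lost under at least 1. Of the 16 alternatives, some gave no call. These left out 1 plate of each tissue, thinned the reads, or asked for at least 5 reads of a gene in a cell. Calls lost were 12 when Rn45s was counted, 9 with at least 1500 genes and 50000 reads per cell and 8 without SAG plate 2. A further setting, without the cell with most reads per tissue, lost 8, and TMM factors lost 4. Counting Rn45s moved the median log2 ratio of all genes from -0.30, -0.30 and -0.25 to -1.92, -1.93 and -1.81 for SAG to PF, COR and GP. Both settings that leave out marker-positive cells, and the ligand, adaptor and all-gene values without SAG plate 2, were chosen after seeing the data. The marker settings lost 7 calls (neural or glial) and 8 (pericyte or smooth muscle). Directions turned for Lamb2 in SAG to PF (-0.80 with Rn45s counted, -0.019 with the stricter cell filter), for Itga5 (-0.068) and Lamb2 (-0.42) in SAG to GP with Rn45s counted, and for Itga1 in SAG to PF without pericyte-marker cells (0.00024). The number of members called ran from 14 to 19 around 16. No paired analysis was possible because plates of different tissues share no animal or batch label and no test was run.

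For the summed integrin subunits, log2 ratios with Rn45s counted were -0.33 (PF to GP), 0.10 (COR to GP), -1.34 (SAG to PF), -1.77 (SAG to COR) and -1.66 (SAG to GP), and with TMM factors -0.49, -0.045, 0.80, 0.35 and 0.31. The stricter filter gave -0.36 for PF to GP and 0.45 for SAG to PF, and the mean of cell CPM gave -0.28 for PF to GP and 0.13 for COR to GP. With no cell filter the SAG ratios to PF, COR and GP were 0.66, 0.24 and 0.26, and without SAG plate 2 that to GP was 0.074. Without neural or glial marker cells PF to GP was -0.29, COR to GP 0.11 and SAG to GP 0.26. For the summed laminin genes, SAG to PF, COR and GP was -1.31, -1.32 and -1.25 with Rn45s counted, -0.79, -0.75 and -0.75 with the stricter filter and -0.76, -0.76 and -0.76 without SAG plate 2, and PF to GP was 0.52 without neural or glial marker cells. The causes were not tested. Itgav in SAG was read in 46.4% of cells with the stricter filter and 43.3% without SAG plate 2.

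With 1 plate of each tissue left out, the laminin ratio lay between -0.031 and 1.01 for PF to COR, -0.32 and 0.059 for PF to GP, -1.33 and 0.090 for COR to GP and -0.78 and 1.05 for SAG to GP, and the integrin ratio between -0.48 and -0.39 for PF to GP, -0.094 and 0.033 for COR to GP and 0.058 and 0.20 for SAG to GP. In SAG, the Itgav share lay between 5.36% and 43.3%, that of Itgb1 in Itgav cells between 33.3% and 92.3% and that of Itgb5 between 33.3% and 76.9%. The share of Itgb1 in Itgav cells of PF lay between 95.5% and 100%, and that of Itgb5 in those of COR between 82.4% and 100%. Small plates and a sample of 1 pool per tissue limit every comparison.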
